A study of Mus musculus with 3 samples.

Results

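The endoplasmic reticulum (ER) folding, quality control and unfolded-protein response genes are described here across cultured tendon cells that carry, or do not carry, a mutant form of the chloride channel Cftr. The set holds 45 named genes, matched by Entrez gene ID, of 16621 genes listed in at least 1 library. It was chosen by function, with no measured value in the rule, and was divided into 19 chaperones and folding enzymes, 17 genes of ER-associated degradation, 4 stress sensor genes and 5 genes of the PERK branch. All 45 were listed, and 44 passed the filter on low counts. The exception was Derl3.

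The libraries were poly(A) RNA-seq of tail tendon derived stem cells, colony-forming progenitors grown out of tendon, from C57BL/6 mice (10 weeks old, per the series' design text). The genotypes were wild type (WT, 1 library) and Cftr with the ΔF508 mutation (DF508, 2 libraries). All cells were untreated and were collected when confluent at passage 4. Whether the DF508 libraries are of different mice or dishes, whether mice were pooled and whether the mutation was on both alleles is not in the labels. The spread behind the p-values is therefore that between these particular samples and may be technical, and the lone WT library was assumed to vary as the DF508 pair did.

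ΔF508 is the loss of a phenylalanine that leaves much of the channel misfolded in the ER, where chaperones retain it and ubiquitin ligases mark it for the proteasome. Proteins that enter the ER are folded by Hsp70, Hsp90 and lectin chaperones and by disulfide isomerases, and those that fail are drawn back into the cytosol and degraded, a route called ER-associated degradation. When unfolded protein builds up, IRE1 (encoded by Ern1), ATF6 and PERK (encoded by Eif2ak3) sense it: IRE1 splices the mRNA of Xbp1, ATF6 is cut to release a transcription factor, and PERK phosphorylates eIF2α, which slows translation and raises ATF4. Fibroblasts of tendon secrete collagen in bulk and are known to keep a large folding apparatus.

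The substrate itself was scarce in these cells. Cftr (gene ID 12638) was at 0.45, 0.03 and 0.03 FPKM (fragments scaled to gene length and to mapped total, as deposited) in WT, DF508 replicate 1 and DF508 replicate 2, which rests on 15, 1 and 1 counts. In the same WT library calreticulin stood at 766 FPKM. The difference in Cftr gave an adjusted p of 0.185 in edgeR's quasi-likelihood test. Only 1 count was found in each DF508 library, so the size of this difference is poorly measured. The cause was not tested, and these values do not check the genotype labels.

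Total estimated counts were 5298326 in WT, 5241826 in DF508 replicate 1 and 5246886 in DF508 replicate 2. All 18 tendon and fibroblast markers were listed, with Col1a1 at 10926 to 13520 CPM (counts per 1000000 of the library total) and the tendon transcription factor Scx at 2.10 to 3.02 CPM. The summed level of these 18 was 25419 CPM in WT and 29272 and 29558 CPM in DF508, 1.15 and 1.16 times WT. Of the 18, 1 was called higher and 0 lower in DF508 (edgeR quasi-likelihood test), with 8 fitted log2 fold changes positive and 10 negative. The libraries differed further in myeloid and proliferation markers. The summed level of 16 myeloid markers was 103 CPM in WT, 163 CPM in DF508 replicate 1 and 747 CPM in replicate 2, with Aif1 at 0 in WT, and that of 10 proliferation genes was 522, 896 and 1022 CPM, with 8 of the 10 higher in DF508 (edgeR quasi-likelihood test). Plasma and B cell markers, of interest since plasma cells have a large ER, summed to 80.6 to 102 CPM, and 4 of 7 had no counts in WT. Only 3 of them (Cd79a, Jchain and Sdc1) were listed in any library and 1 passed the filter on low counts. That sum thus rests largely on 1 gene. The summed levels of endothelial, epithelial and skeletal muscle markers lay at 12.8 to 14.9, 1.13 to 1.72 and 4.91 to 7.44 CPM, and 5, 7 and 5 of the 8 markers in each list had no counts in WT, among them Pecam1 and Cdh5, Epcam and Cdh1, and Myod1 and Myog. The part of the myeloid and proliferating cells, and of the higher tendon marker sum, in the results that follow was not tested. In bulk RNA, fewer cells of a type and less RNA per cell cannot be told apart.

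The comparison of DF508 with WT asked whether transcripts of the folding and stress apparatus differed in cells labelled as carrying the ΔF508 mutation. Of the 44 genes tested, 1 fell and none rose, beside 1.39% of all genes that changed either way. It was Ppp1r15a, whose product (GADD34) brings phosphatase to eIF2α and so undoes the action of PERK. Over all 12888 genes tested, 0.9% fell and 0.489% rose (edgeR quasi-likelihood test, adjusted p threshold of 0.05). At an unadjusted p under 0.05 there were 2 higher genes, Calr and Dnajc3, and 3 lower ones, Ppp1r15a, Ddit3 and Herpud1, where 5.86% and 6.08% of all genes tested were higher and lower.

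By size alone, Ppp1r15a and Ddit3 (2 of 44) lay 0.32 log2 units or more under WT in each mutant library, and 0 genes lay as far above it in both. Of the 10961 genes whose mean reached 5 CPM, 5.11% and 9.44% did so. Taken singly, DF508 replicate 1 had 6 genes past this size, 3 of them higher, and replicate 2 had 4, all of them lower. Most of the 44 genes thus lay within it in each library. The share of all genes past this size in a single library was not counted, so these single-library counts have no background beside them. The ratio of CPM to WT over the 44 genes ran from 0.542 (Ddit3) to 1.43 (Chac1) in replicate 1 and from 0.615 (Ddit3) to 1.21 (Dnajc3) in replicate 2.

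**Figure D1:**
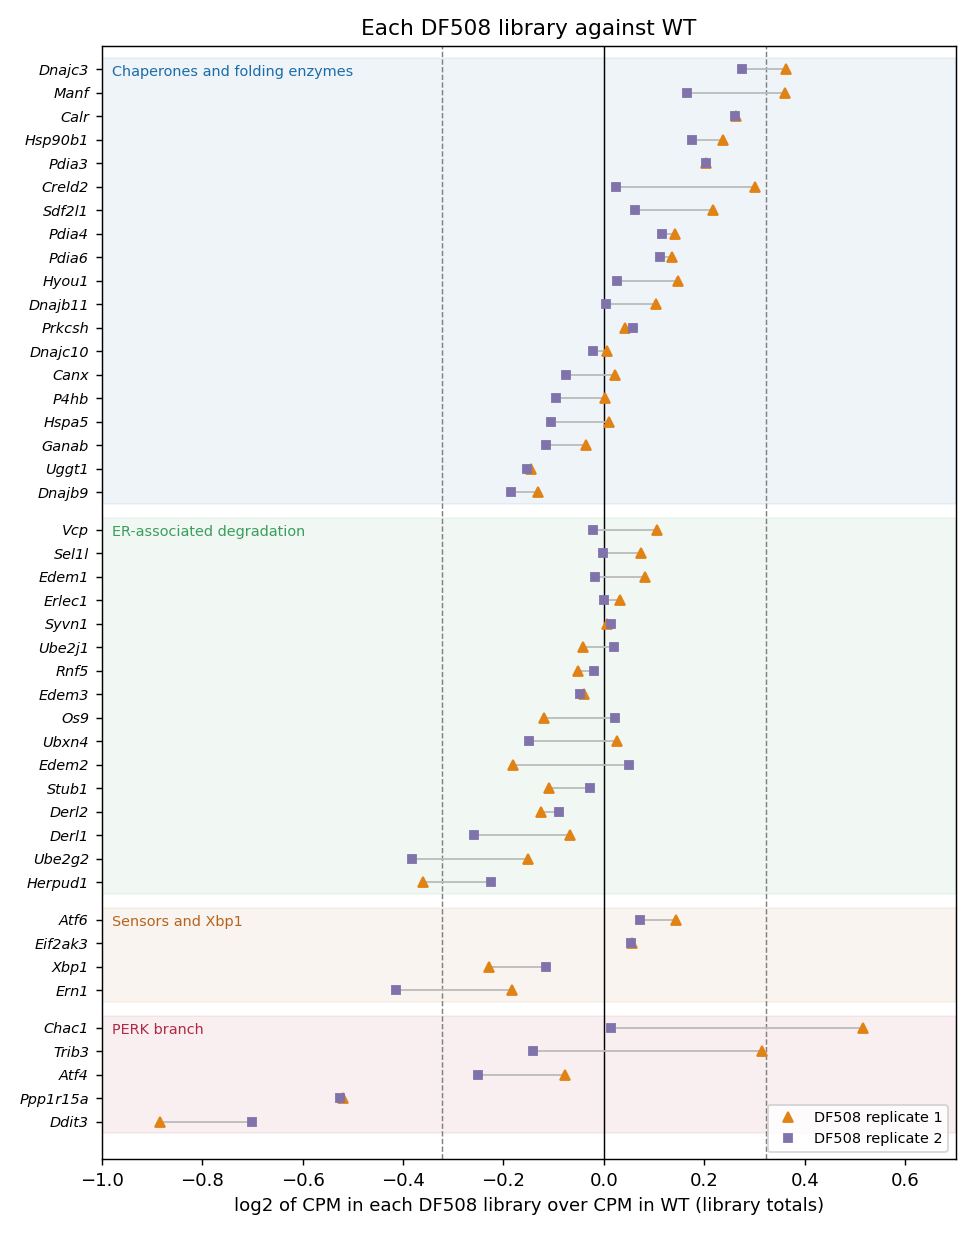
Log2 of the CPM (library totals) in DF508 replicate 1 (triangles) and replicate 2 (squares) over that in WT for the 44 genes tested, by class; dashed lines mark the size rule of 0.32 log2 units. Ppp1r15a and Ddit3 alone lie beyond the left line in both libraries, and no gene lies beyond the right line in both.

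The distance from WT was close to that between the mutant libraries. On TMM-normalized values, the median absolute log2 difference from WT over the 44 genes was 0.12 for DF508 replicate 1 and 0.11 for replicate 2. The mutant libraries differed from each other by a median of 0.096. Over all genes tested the same medians were 0.19, 0.20 and 0.16, and over 3598 genes at levels between the quartiles of these 45 they were 0.13, 0.13 and 0.094. The median fitted log2 fold change was -0.053 over the 44 genes and 0.0055 over all genes tested. Over the 44 genes it was -0.027 without DF508 replicate 2.

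How many genes lay on 1 side of WT turned on the scaling, since TMM, which takes out a shared shift, lowered DF508 against WT by 0.0445 (log2) relative to library totals. On library totals 16 of 44 were above WT in both DF508 libraries and 15 below, beside 43.5% and 29.6% of all genes tested. With TMM 10 were above and 24 below, beside 36.3% and 36.2%. With a single WT library, lying on 1 side of it in both mutants is common: 31 of 44 did on library totals, as did 73.1% of all genes tested.

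**Figure D2:**
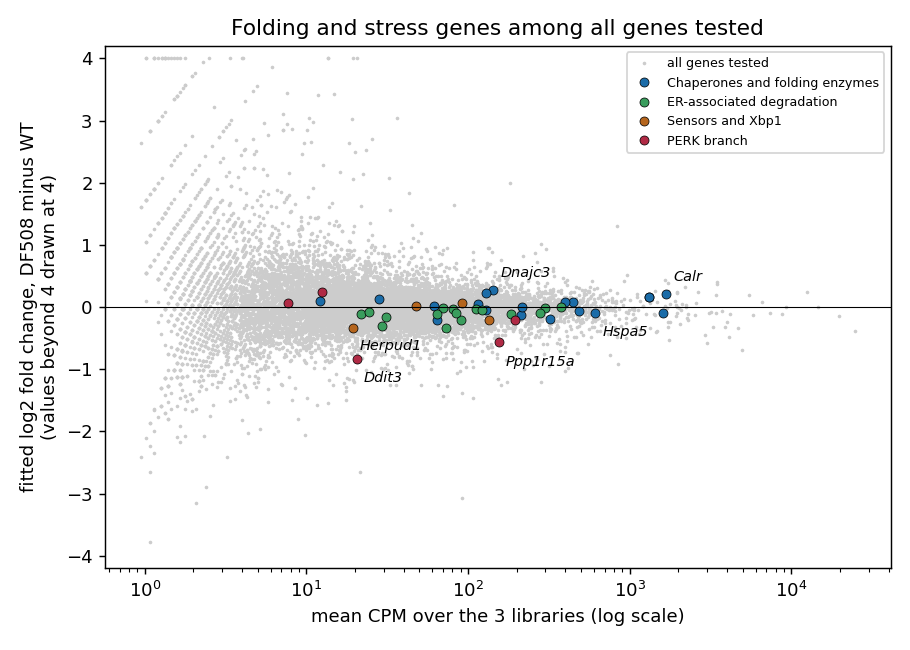
Fitted log2 fold change (DF508 minus WT, edgeR with TMM) against mean CPM on a log axis for the 12888 genes tested (grey) and the folding and stress genes (coloured by class). Most coloured points lie close to 0, and Ddit3 and Ppp1r15a are the lowest of them, at -0.83 and -0.57.

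Levels per gene length ran from rank 50 to rank 13503 of all genes listed. Averaged over the libraries, Calr had 868 FPKM and was the highest of the set among 16621 genes, and the disulfide isomerases P4hb and Pdia3 (633 and 494 FPKM) and the ER Hsp90 Hsp90b1 (479 FPKM) ranked 81, 113 and 116. Hspa5, the ER Hsp70 known as BiP, ranked 5 within the set at 241 FPKM. The most abundant degradation gene was the ATPase Vcp (113 FPKM), the most abundant PERK-branch gene Atf4 (113 FPKM) and the most abundant gene of the sensor class Xbp1 (59.2 FPKM). The sensor kinase Ern1 (4.85 FPKM), the pseudokinase Trib3 (3.78 FPKM) and the secretory-cell derlin Derl3 (0.383 FPKM) were the lowest. As a share of all counts, the 45 genes took 1.16% in WT, 1.23% in DF508 replicate 1 and 1.19% in replicate 2.

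**Figure D3:**
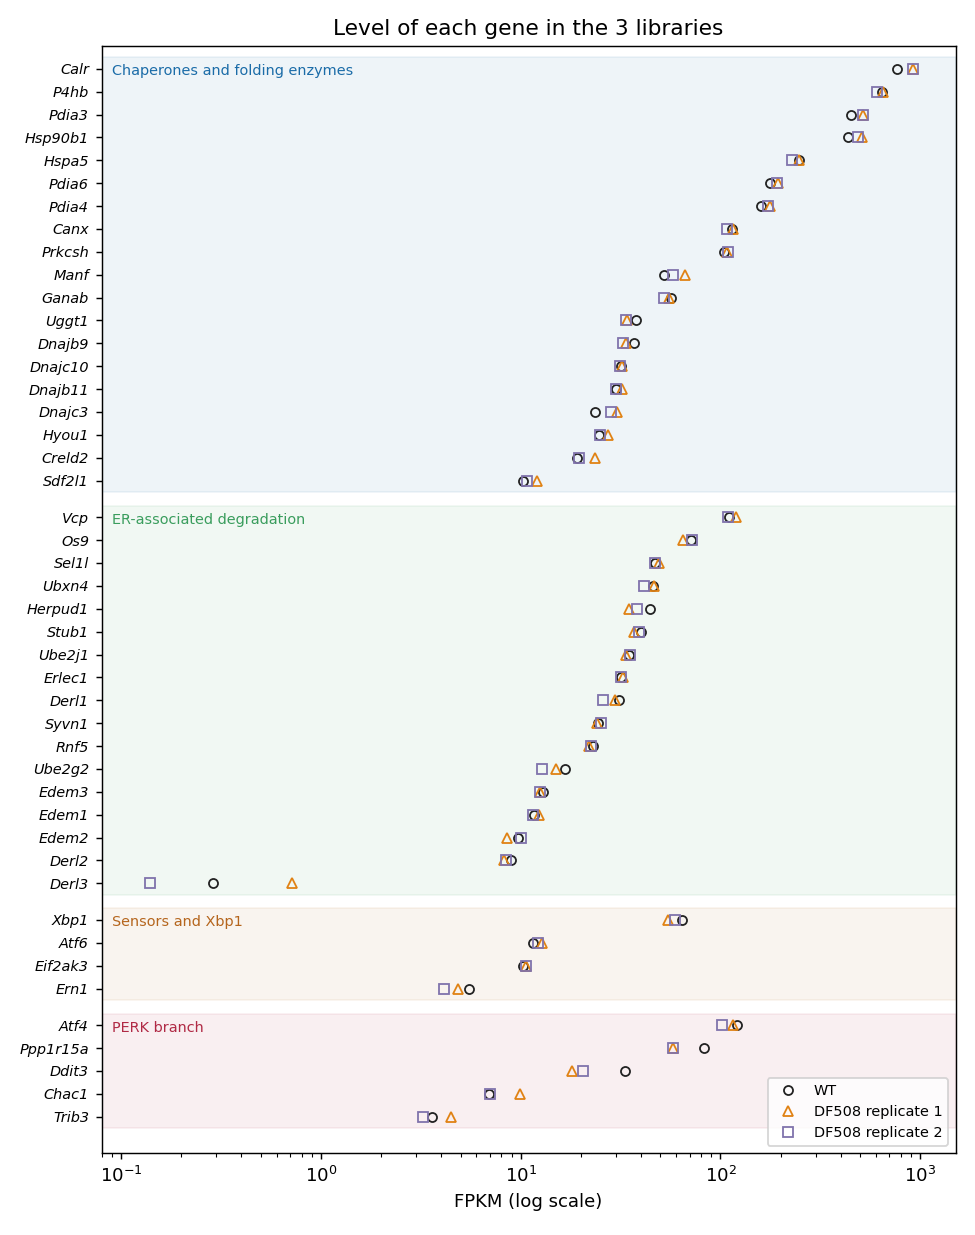
FPKM on a log axis for each of the 45 genes in WT (circles), DF508 replicate 1 (triangles) and DF508 replicate 2 (squares), ordered by level within each class. The libraries overlap closely except at Derl3, which had at most 5 counts in a library, and at Ddit3 and Ppp1r15a, where WT lies to the right.

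Chaperones and folding enzymes made up the bulk of the set, and none of the 19 passed the test, with 2 at an unadjusted p under 0.05. Their summed level was 8839 CPM in WT and 9681 and 9351 CPM in the DF508 libraries, 1.10 and 1.06 times WT. The median fitted log2 fold change was 0.044, with 12 positive and 7 negative; the median was 0.093 in replicate 1 and -0.020 in replicate 2. On library totals 12 of 19 were above WT in both DF508 libraries and 3 below, beside 43.5% and 29.6% of all genes tested. With TMM 8 were above and 7 below, beside 36.3% and 36.2%. These counts depended on the scaling, while the class median stayed above 0 with each scaling (0.065 with upper-quartile factors, 0.089 on library totals). DESeq2's Wald test, limma-voom and edgeR's likelihood ratio test called 0 of the 19 as well.

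In the lectin arm Calr and Pdia3 were higher in both mutant libraries without passing, and Canx was not. Calr (gene ID 12317), the soluble lectin chaperone that binds monoglucosylated glycans, had 1482 CPM in WT and 1779 and 1776 CPM in DF508 replicates 1 and 2. Both mutant libraries were higher, by a ratio of 1.20 in each, and the fitted log2 fold change was 0.22 ± 0.083 (SE; edgeR quasi-likelihood adjusted p = 0.326). Pdia3, the disulfide isomerase that works with calreticulin, had 1194, 1374 and 1375 CPM, again higher in both mutant libraries (0.16 ± 0.085, adjusted p = 0.519). Canx, the membrane-bound partner of Calr and a known binder of nascent Cftr, had 491, 498 and 466 CPM, with WT between the mutants. The enzymes that trim and restore the glucose tag lay at or below WT or close to it. Uggt1, the folding sensor that puts glucose back, had 343 CPM in WT and 311 and 309 CPM in DF508. The glucosidase II subunits Ganab (219, 213 and 202 CPM) and Prkcsh (211, 217 and 220 CPM) stayed within a ratio of 0.923 to 1.04 of WT.

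The Hsp70 and Hsp90 machines did not move as a block. Hspa5 (gene ID 14828), the chaperone whose mRNA is the usual readout of the unfolded-protein response, had 626 CPM in WT and 630 and 582 CPM in DF508, with WT between the mutant libraries. Its fitted log2 fold change was -0.091 ± 0.098 (adjusted p = 0.79), with a 95% interval of -0.31 to 0.13. That interval still holds a change of this size in either direction, so the values do not show that Hspa5 was equal. Hsp90b1, the client-selective ER Hsp90, had 1200, 1415 and 1355 CPM and was higher in both mutant libraries. The Hsp70-like exchange factor Hyou1 had 110, 122 and 112 CPM.

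Among the J proteins, which hand clients to BiP, members went opposite ways. Dnajc3, also an inhibitor of PERK, had 123 CPM in WT and 158 and 149 CPM in DF508, with the highest fitted log2 fold change of the class, 0.27. It was picked out after its values were seen (adjusted p = 0.354). Dnajb9, a classic target of spliced Xbp1 that keeps IRE1 inactive, had 68.5, 62.6 and 60.2 CPM, below WT in both (-0.20 ± 0.12, adjusted p = 0.554). Dnajb11 (59.8, 64.3 and 60.0 CPM) and the reductase Dnajc10 (130, 130 and 128 CPM) lay near WT. Dnajb9 and Dnajb11 share reads with another gene or copy and are uncertain.

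The other disulfide isomerases and the small secreted folding factors showed modest differences. Pdia4 had 418, 461 and 453 CPM and Pdia6 374, 411 and 404 CPM, both 1.08 to 1.10 times WT. P4hb, which is both a disulfide isomerase and a subunit of collagen prolyl hydroxylase, had 1640, 1643 and 1536 CPM (log2 fold change -0.089 ± 0.087, adjusted p = 0.761). Manf, a factor induced by ER stress, had 114 CPM in WT and 147 and 128 CPM in DF508, and the ER-stress-inducible Creld2 (25.9, 31.9 and 26.3 CPM) and Sdf2l1 (11.3, 13.2 and 11.8 CPM) were higher in replicate 1 than in replicate 2. For Creld2 and Sdf2l1 the gap between the mutant libraries was larger than that between replicate 2 and WT.

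Promoters of 9 of the genes hold 1 shared element, and its sequence is shown because it is the site through which ATF6 and XBP1, with NF-Y, are known to raise ER chaperones together. The ER stress response element (ERSE) was searched as CCAAT, then 9 bases of any kind, then CCACG, on both strands in the 250 bases before each RefSeq gene start (GRCm38.p6, not the build of the deposited files). It was found before 9 of 38 of the genes that have an entry (23.7%), against 35 of 27025 genes in the table (0.13%), and before 7 of 17 chaperones. Among genes listed in these libraries 19 of 12908 had it (0.147%). Element and genes were both chosen for their part in the ER stress response, so a higher share was built in. The shorter ERSE-II, ATTGG and CCACG with 1 base between them, was found before 1 of the 38, Herpud1, against 0.037% of all. The XBP1 core TGACG followed by TGG was found before Ube2j1 and Vcp (5.26%), against 0.603% of all. The letters CCACG and CCAAT, which lie inside both elements (the latter as ATTGG in ERSE-II), were found alone or within them before 63.2% and 71.1% of the 38 and 31% and 37.5% of all genes. Hyou1, Manf, Derl1, Erlec1, Rnf5, Ube2g2 and Atf6 had no entry. In the sequences below, written 5′ to 3′ on the strand of the gene, capitals mark the ERSE; it runs in reverse, as CGTGG to ATTGG, before Calr, Creld2 and Derl3 and at the second Hsp90b1 site.
Hspa5, chr2:34772005-34772063, plus strand: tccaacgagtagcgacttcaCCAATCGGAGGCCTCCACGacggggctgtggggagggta
Calr, chr8:84847055-84847113, minus strand: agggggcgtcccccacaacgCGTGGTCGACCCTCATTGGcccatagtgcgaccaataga
Hsp90b1, chr10:86705618-86705676, minus strand: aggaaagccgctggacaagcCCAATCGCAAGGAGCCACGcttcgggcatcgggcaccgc
Hsp90b1, chr10:86705513-86705571, minus strand: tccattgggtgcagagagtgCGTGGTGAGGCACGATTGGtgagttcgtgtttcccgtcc
Canx, chr11:50325780-50325838, minus strand: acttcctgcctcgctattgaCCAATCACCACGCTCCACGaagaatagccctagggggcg
Pdia6, chr12:17266471-17266529, plus strand: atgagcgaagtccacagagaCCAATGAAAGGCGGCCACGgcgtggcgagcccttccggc
Dnajc3, chr14:118937807-118937865, plus strand: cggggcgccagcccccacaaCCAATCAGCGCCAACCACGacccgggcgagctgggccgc
Creld2, chr15:88819500-88819558, plus strand: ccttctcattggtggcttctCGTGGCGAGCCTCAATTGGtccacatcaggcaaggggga
Syvn1, chr19:6046512-6046570, plus strand: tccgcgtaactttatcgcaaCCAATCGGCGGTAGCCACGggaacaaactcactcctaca
Derl3, chr10:75893222-75893280, plus strand: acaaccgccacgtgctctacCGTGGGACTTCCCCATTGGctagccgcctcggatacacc

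Genes with the element lay on both sides of WT. Of the 10 genes with ERSE or ERSE-II, 6 were above WT in both DF508 libraries on library totals (Hsp90b1, Calr, Pdia6, Dnajc3, Creld2 and, by a ratio of at most 1.01, Syvn1), 1 was below in both (Herpud1), and Hspa5, Canx and Derl3 were neither. Over all genes tested 43.5% were above and 29.6% below. With TMM the 9 that were tested split into 4 above (Hsp90b1, Calr, Pdia6 and Dnajc3) and 4 below (Hspa5, Canx, Syvn1 and Herpud1), beside 36.3% and 36.2%. The fitted log2 fold changes of these 9 had a median of 0.080 and ran from -0.34 to 0.27. The 28 tested genes with an entry and neither element had a median of -0.089 and ran from -0.83 to 0.24. These 2 sets also differ in class. ERSE was found before 7 of 17 chaperones and 0 of 5 PERK-branch genes, whose class medians were 0.044 and -0.21. Element and class cannot be told apart here. Hspa5, with the element 65 to 47 bases before its start, had WT between its mutant libraries on library totals, and a match is a description of letters, not of binding.

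Genes of ER-associated degradation stayed close to WT. Of the 17, 16 were tested and none passed, with 1 at an unadjusted p under 0.05. The summed level was 1964 CPM in WT and 1953 and 1904 CPM in DF508. All 16 fitted log2 fold changes were at or below 0 with TMM, with a median of -0.089 and a range of -0.34 to -0.00056. With TMM 12 of 16 were below WT in both mutant libraries and 0 above, beside 36.2% and 36.3% of all genes tested. On library totals 7 of 16 were below in both and 1 was above, beside 29.6% and 43.5%. The fitted values of Edem1, Erlec1, Sel1l, Syvn1 and Vcp turned positive on library totals. DESeq2's Wald test, limma-voom and edgeR's likelihood ratio test called 0 of these genes too.

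The largest difference of this class was in Herpud1 (gene ID 64209), an ER membrane scaffold of the retrotranslocation complex and a strong target of ATF6, XBP1 and ATF4. It had 83.0 CPM in WT and 64.7 and 71.1 CPM in DF508, lower in both mutant libraries (log2 fold change -0.34 ± 0.12 SE, adjusted p = 0.269). Its promoter holds the ERSE-II and, further upstream, a match in reverse to TGATGNAAN, the core of the element that ATF4 binds with C/EBP factors. That core was found before 2 of the 38 genes (5.26%) and 3.89% of all. Both Herpud1 sites and the Chac1 site are shown, with capitals on the match. Chac1 is the other gene with a match to the ATF4 core.
Herpud1 ERSE-II, chr8:94386357-94386407, plus strand: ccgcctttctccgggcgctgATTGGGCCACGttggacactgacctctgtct
Herpud1 ATF4 core, chr8:94386296-94386344, plus strand: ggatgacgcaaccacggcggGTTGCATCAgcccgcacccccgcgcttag
Chac1 ATF4 core, chr2:119351028-119351076, plus strand: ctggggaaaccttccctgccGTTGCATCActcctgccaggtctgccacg

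The ligase complexes known to handle ΔF508 Cftr were near WT. Rnf5, the ER membrane ligase that acts on Cftr while it is being made, had 24.7 CPM in WT and 23.8 and 24.4 CPM in DF508 (log2 fold change -0.080 ± 0.19, adjusted p = 0.918). Stub1 (CHIP), the cytosolic ligase that ubiquitinates Cftr held by Hsp70, had 66.2, 61.4 and 65.0 CPM (-0.11 ± 0.12, adjusted p = 0.78). Derl1, the channel-like protein that draws misfolded Cftr out of the membrane, had 97.6, 93.1 and 81.6 CPM, below WT in both, with replicate 2 lowest (-0.20 ± 0.12, adjusted p = 0.572). The 95% intervals of these log2 fold changes were -0.51 to 0.35, -0.38 to 0.15 and -0.48 to 0.070, so changes of such size remain possible.

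The core ligase and its adaptors varied as little. Syvn1 (HRD1), the central ligase, had 80.03, 80.3 and 80.8 CPM, and its partner Sel1l 296, 311 and 295 CPM (log2 fold change -0.0086 ± 0.10, adjusted p = 0.987). The lectins that pass trimmed glycoproteins to them, Os9 and Erlec1, had 284, 261 and 288 CPM (-0.091 ± 0.11, adjusted p = 0.812) and 111, 114 and 111 CPM. The mannosidase-like Edem1, Edem2 and Edem3, which trim those glycans, had 68.5, 72.5 and 67.7 CPM, 22.3, 19.7 and 23.1 CPM and 85.9, 83.6 and 83.1 CPM. In none of these did the mutant libraries stand apart from WT by more than a ratio of 0.882 to 1.06.

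Downstream of the ligases, Vcp, the ATPase that pulls substrates into the cytosol, had 367, 396 and 362 CPM (-0.00056 ± 0.10, adjusted p = 0.999), and its ER-anchored recruiter Ubxn4, which shares reads and is uncertain, 189, 192 and 170 CPM. The conjugating enzyme Ube2j1 had 123, 119 and 124 CPM. The other conjugating enzyme, Ube2g2, had 33.0, 29.8 and 25.3 CPM, lower in both mutants and lowest in replicate 2. Derl2 had 32.7, 30.0 and 30.7 CPM. Derl3 had 2, 5 and 1 counts, and the ratio of the pooled DF508 libraries to WT had an exact 95% Poisson interval of 0.271 to 15.4, so no difference was detectable at this depth. Such intervals cover counting error only.

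The sensors themselves gave no call, at the adjusted or the unadjusted threshold of 0.05, in edgeR's quasi-likelihood test, and 0 with DESeq2's Wald test, limma-voom and the likelihood ratio test. Eif2ak3 (PERK) had 46.4 CPM in WT and 48.3 and 48.2 CPM in DF508, with the mutants almost equal and WT just below (log2 fold change 0.011 ± 0.13, adjusted p = 0.988, 95% interval -0.28 to 0.31). Atf6 had 87.0, 96.2 and 91.5 CPM (0.064 ± 0.11, adjusted p = 0.884). The IRE1 arm lay on the other side: Ern1 had 22.1, 19.5 and 16.6 CPM, and Xbp1 (gene ID 22433) 145, 123 and 133 CPM, below WT in both (-0.22 ± 0.11, adjusted p = 0.486). Estimates per gene do not separate spliced from unspliced Xbp1, so the activity of IRE1 was not measured.

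Of the 4 classes, the PERK branch held the only call and the widest range of fold changes. Its 5 genes had a median fitted log2 fold change of -0.21 (-0.30 without DF508 replicate 1 and -0.12 without replicate 2) and summed to 452 CPM in WT and 375 and 347 CPM in DF508. Ppp1r15a (gene ID 17872) had 194 CPM in WT, 135 CPM in DF508 replicate 1 and 135 CPM in replicate 2. The mutant libraries were almost equal (135 ± 0.362 CPM, SD, n = 2) and both well below WT. The fall was 1.48-fold (log2 fold change -0.57 ± 0.10 SE, edgeR quasi-likelihood adjusted p = 0.0383), and on counts alone the ratio of DF508 to WT had an exact 95% Poisson interval of 0.642 to 0.755. The size was stable and the call was not. The adjusted p was 0.0269 with limma-voom and 0.000675 with the likelihood ratio test, but 0.308 with DESeq2's Wald test, 0.441 on library totals without TMM, 0.662 without a filter on low counts and 0.493 to 0.499 on log2 FPKM, with log2 fold changes of -0.57 to -0.52 throughout.

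Ddit3 (gene ID 13198), the pro-apoptotic transcription factor CHOP, had the largest difference of all 44 genes and did not pass. It had 28.5 CPM in WT and 15.5 and 17.5 CPM in DF508, from 151, 81 and 92 counts, or 16.5 ± 1.47 CPM (SD, n = 2) in the mutants, so both mutant libraries were low. The fitted log2 fold change was -0.83 ± 0.20 (adjusted p = 0.111), with a 95% interval of -1.29 to -0.37. Over the alternatives its adjusted p ran from 0.0471 in the likelihood ratio test, the sole call, to 0.9999 in DESeq2's Wald test. The exact Poisson interval of the ratio was 0.463 to 0.725.

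The other genes of the branch had smaller differences or WT at or between the mutants. Atf4, whose product drives the rest of the branch and whose output is set mainly at translation, had 211, 200 and 177 CPM (-0.21 ± 0.11, adjusted p = 0.532). Trib3, a pseudokinase induced by ATF4 and CHOP, had 7.36, 9.16 and 6.67 CPM, with WT between the mutants (0.060 ± 0.36, adjusted p = 0.974). Chac1, a glutathione-degrading enzyme induced by ATF4, had 10.9, 15.6 and 11.1 CPM, with replicate 1 high and replicate 2 near WT (0.24 ± 0.29, adjusted p = 0.82). At 35 to 82 counts a library, the intervals of Trib3 and Chac1 were wide (log2 fold change -0.75 to 0.87 and -0.42 to 0.91).

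**Figure D4:**
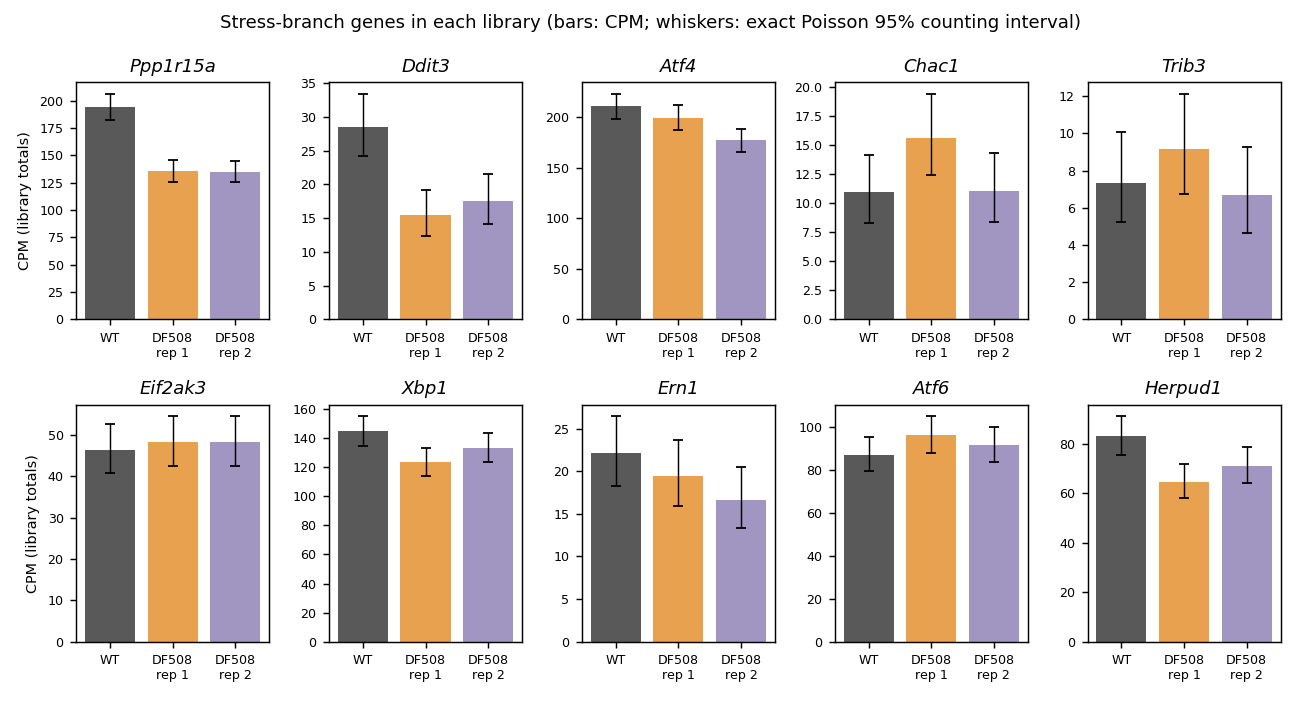
CPM (library totals) of the PERK-branch genes, the sensors, Xbp1 and Herpud1 in WT, DF508 replicate 1 and DF508 replicate 2; whiskers are exact Poisson 95% intervals for counting error in that library. In Ppp1r15a and Ddit3 the whiskers of both mutant libraries lie below those of WT. In Herpud1 and Xbp1 those of replicate 1 alone do, and in Atf4 those of replicate 2 alone. In Eif2ak3, Atf6, Ern1, Chac1 and Trib3 the whiskers overlap.

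The wider pathway gave no calls. In 6 further lists, of other ER folding enzymes (36 tested), ER entry, signal peptidase and glycan transfer (32), other degradation components (37), other sensors and ER transcription factors (23), targets of ATF4 and CHOP (40) and cytosolic factors that handle Cftr (27), 0 genes passed in edgeR's quasi-likelihood test, DESeq2's Wald test, limma-voom or the likelihood ratio test, and the median log2 fold changes lay between -0.046 and -0.010. Over all genes tested 1.39% were called in edgeR's quasi-likelihood test, a small share to look for among the 194 distinct genes of these lists. At an unadjusted p under 0.05 in that test 7 of the 194 were higher and 12 lower, beside 5.86% and 6.08% of all genes tested. The collagen chaperone Serpinh1 had 1391, 1491 and 1546 CPM and the collagen prolyl isomerase Ppib 258, 251 and 251 CPM. The oligosaccharyltransferase subunit Rpn2 had 568, 502 and 526 CPM and the translocon-associated Ssr3 473, 568 and 560 CPM. The ER stress transducer Creb3l1, which is linked to collagen secretion, had 175, 203 and 186 CPM, and Mbtps1, the protease that cuts ATF6, 234, 228 and 221 CPM.

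Targets of ATF4 and CHOP were read for whether the low Ddit3 and Ppp1r15a went with their neighbours in the pathway. None of 40 passed. At an unadjusted p under 0.05 in edgeR's quasi-likelihood test 4 were lower and 0 higher, beside 6.08% and 5.86% of all genes tested. The median log2 fold change was -0.046, beside 0.0055 over all genes tested. The transcription factor Atf5 had 199, 175 and 184 CPM and the amino acid transporter subunit Slc3a2, which shares reads and is uncertain, 197, 204 and 224 CPM. Among the cytosolic factors, Hspa8, the Hsp70 that binds Cftr on its cytosolic face, had 2391, 2094 and 2276 CPM and Hsp90ab1, which shares reads and is uncertain, 1270, 1336 and 1413 CPM, and neither passed (adjusted p = 0.477 and 0.825). Of the other degradation components the most abundant were the ER export and quality control factor Bcap31 (98.7, 92.7 and 87.5 CPM) and the proteasome shuttle Rad23b (276, 268 and 260 CPM), both lower in each mutant library without passing (adjusted p = 0.599 and 0.735).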

How the data were processed

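Per the submitters' processing notes, the poly(A) libraries (3) were processed with Bowtie, RSEM and mm9. Versions, annotation release and strand setting were not given in the sources used here. Reads of a gene and of an overlapping antisense partner cannot be separated. Per the file headers, each library's deposited table gives a gene's expected count (RSEM's estimate, not normalized), its FPKM (the authors' count per length and depth) and the length used. Genes missing from a table were set to 0. Expected counts were rounded. A gene whose expected count was not whole within 0.005 in any library shares reads and is called uncertain (3 of the 45). IDs were named with a RefSeq table of GRCm38.p6 (16579 of 16621 matched); promoters are RefSeq's, from the same build.

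CPM are counts over library totals. DF508 was compared with WT by edgeR's quasi-likelihood test with TMM after filterByExpr, over 12888 genes, with Benjamini-Hochberg adjustment at 0.05; the fit has 1 residual and 7.72 prior degrees of freedom. The standard error is the fold change over the root of F. Versions were DESeq2 1.42.0, limma 3.58.1, edgeR 4.0.16 and R 4.3.3. On simulated counts the test gave the right signs, but recovery of changed genes differed widely between draws. A count of 0 in WT allows up to 3 counts, or 0.566 CPM. Counts of the DF508 pair differed by more than counting noise (chi-square over its degrees of freedom 3.57), so they were not taken for 1 library listed again.

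The genes, classes, lists and motifs were chosen with earlier results of these data known. Every member may be named with its CPM. Fitted fold changes with errors and adjusted p are for members past the threshold or past the size rule (at least 0.32 log2 units above WT in both mutant libraries, or below it in both, and averaging 5 CPM or more), the 3 most abundant of each class by FPKM, and Hspa5, Dnajb9, Herpud1, Xbp1, Ddit3, Trib3, Chac1, Stub1, Rnf5 and Derl1; Dnajc3 is outside the rule. From each further list came up to 4 called genes, or the 2 of highest FPKM where none was called. Alternatives were other scalings, filters, tests and fold rules, FPKM, and each DF508 library left out.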

Additional observations from a re-analysis of the deposited data

How the results depend on the processing

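Chaperone, degradation and sensor genes gave 0 calls under every alternative run: other scalings, filters, DESeq2's Wald test, limma-voom, the likelihood ratio test and log2 FPKM with a pseudocount of 1 or 0.1. The single call in the PERK branch, which is also that of the whole set, became 0 on library totals, without a filter, with DESeq2's Wald test and on both FPKM scales, and 2 with the likelihood ratio test. Over all genes the 179 calls became 0, 0, 63, 0 and 0 in those settings and 403 with the likelihood ratio test. The prior degrees of freedom fell from 7.72 to 2.57 on library totals and to 1.78 without a filter. An unadjusted p under 0.05 in edgeR's quasi-likelihood test was reached there by 1253 and 1123 genes. The cause of the changed number of calls was not tested in any setting. The median log2 fold change of all 44 genes went from -0.053 to -0.0085 on library totals and to -0.0085 and -0.0087 on FPKM. That of the degradation genes went from -0.089 to -0.068 with upper-quartile factors, -0.045 on library totals and -0.045 and -0.047 on FPKM, and that of the sensors from -0.10 to -0.081, -0.058, -0.060 and -0.059. With a mean of at least 50 counts, which drops Trib3, the PERK-branch median was -0.38. Leaving out each DF508 library gave medians of -0.064 to -0.027 (all 44), -0.020 to 0.093 (chaperones), -0.088 to -0.066 (degradation), -0.104 to -0.077 (sensors) and -0.30 to -0.12 (PERK branch).

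The count of genes past the size rule in both mutant libraries was 2, with 1 at 1.5-fold, 0 at 2-fold, and 4 to 6 with a mutant library left out. Of the 32 named genes, 4 turned sign: Vcp (0.020 with upper-quartile factors, 0.044 on library totals, 0.0068 at 50 counts, 0.042 on both FPKM scales, and -0.068 to 0.064 with a mutant library left out), Sel1l (0.012, 0.036, 0.032 and 0.033 in the same settings other than 50 counts, and -0.049 to 0.030 with a mutant library left out), Trib3 (-0.18 to 0.26) and Chac1 (-0.031 to 0.46), both with a mutant library left out, the negative value without DF508 replicate 1. Over the 44 genes, 5 turned sign on library totals (Edem1, Erlec1, Sel1l, Syvn1 and Vcp), 6 without DF508 replicate 1 and 4 without replicate 2. Tests without a mutant library were not run, since no residual degree of freedom remains. No paired analysis was possible because there is a single WT library, with no replicate number in its label. At this depth Derl3, Trib3, Chac1 and Sdf2l1 (60 to 69 counts a library) are limited by counting.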
